A study of Mus musculus with 5 samples.

Results

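The genes described here are 8 transcription factors of cortical and striatal interneurons, Nkx2-1, Lhx6, Sox6, Maf, Dlx1, Dlx2, Dlx5 and Dlx6. They were chosen by name, and all 8 were found among the 47729 genes of the deposited count table through their GENCODE M21 symbols. Each had a mean of at least 10 counts, the minimum used for tests, as did 16318 genes in all. RNA sequencing had measured the brain of 5 male C57BL/6 mice, an inbred laboratory strain, at an age of 30 months. The mice form 1 group with no treatment, genotype or second age, and are named by their label numbers, 7 to 11. The labels say brain without naming a region, and nothing in them describes how the tissue was divided. The questions are therefore how high each factor stood in the old brain and how far the mice differed. Spread is given as an SD over the 5 mice (n = 5), which may in part be technical.

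Inhibitory interneurons of the forebrain are born in the ganglionic eminences of the embryo and migrate from there into cortex, hippocampus and striatum. The homeodomain factor Nkx2-1 sets the identity of the medial eminence and switches on Lhx6, a LIM homeodomain factor, which in turn acts through Sox6 and Maf in future somatostatin and parvalbumin cells. The Dlx factors, encoded by linked gene pairs, act across the eminences and promote the GABA phenotype, and several of these genes stay on in mature cells. In bulk tissue, fewer cells of a type and less RNA per cell cannot be told apart.

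The libraries held between 15392006 and 18723390 counts, with the largest total in mouse 11. That library stood apart. In mouse 11 the median deviation from the 5-mouse mean rose along the GC content of the transcript, from -0.42 log2 units for 1251 genes under 40% GC to 0.49 for 3505 genes at or above 55%. In mouse 7 the same medians ran the other way, from 0.43 to -0.13. The spread of each factor is therefore also given without mouse 11, and deviations and likeness also after a trend on GC content and transcript length was removed from each library. Likeness and nearest genes were not recomputed without mouse 11. Brain markers were present throughout: the glutamate transporter gene Slc17a7 had 271 to 520 RPKM and the GABA synthesis gene Gad1 had 85.2 ± 7.61 RPKM. RPKM are counts divided by transcript length and library size, and CPM by library size alone. The GC comparisons were chosen after these values were seen.

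For 4 of the factors a RefSeq start site has an upstream stretch outside every annotated exon, and these stretches are printed because their base composition differs widely, from AT-rich in Sox6 to CpG-rich in Dlx2. They are on the GRCm38.p6 build, minus strand, read 5′ to 3′ and ending beside the start site or the first annotated exon base. Lhx6 is at chr2:36105409-36105658, Dlx2 at chr2:71546755-71547004, Nkx2-1 at chr12:56536909-56537158 and Sox6 at chr7:116038797-116038994. Capitals mark the Sox core AACAAT or its reverse complement ATTGTT, and would also mark the homeodomain core TAATTA, which reads alike on both strands.
Lhx6: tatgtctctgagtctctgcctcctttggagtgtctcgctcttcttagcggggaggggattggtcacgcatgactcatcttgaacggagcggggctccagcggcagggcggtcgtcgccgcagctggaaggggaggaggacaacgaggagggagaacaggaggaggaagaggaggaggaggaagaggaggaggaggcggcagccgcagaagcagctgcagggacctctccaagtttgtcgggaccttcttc
Dlx2: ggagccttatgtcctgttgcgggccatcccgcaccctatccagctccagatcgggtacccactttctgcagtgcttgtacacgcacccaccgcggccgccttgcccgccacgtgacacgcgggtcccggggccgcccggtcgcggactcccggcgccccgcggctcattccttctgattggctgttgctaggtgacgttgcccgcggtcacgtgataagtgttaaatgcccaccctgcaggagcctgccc
Nkx2-1: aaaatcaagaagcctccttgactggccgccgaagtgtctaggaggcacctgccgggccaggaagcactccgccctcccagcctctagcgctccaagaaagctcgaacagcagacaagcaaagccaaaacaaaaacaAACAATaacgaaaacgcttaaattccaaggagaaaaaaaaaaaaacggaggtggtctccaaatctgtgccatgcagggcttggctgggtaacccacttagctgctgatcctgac
Sox6: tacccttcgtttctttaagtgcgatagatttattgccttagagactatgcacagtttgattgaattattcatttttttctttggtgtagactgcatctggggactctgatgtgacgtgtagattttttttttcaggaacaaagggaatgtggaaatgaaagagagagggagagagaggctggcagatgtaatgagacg
GC content was 61.6% for Lhx6, 66.4% for Dlx2, 50.8% for Nkx2-1 and 39.4% for Sox6, against a median of 52.4% over the 32851 upstream windows in the table. Dlx2 held 24 CpG sites, Lhx6 14, Nkx2-1 9 and Sox6 4. The homeodomain core was in 0 of these 4 stretches and in 4.84% of all windows of 250 bases. The Sox core occurred 1 time, in Nkx2-1, and was in 9.42% of all windows. These are matches of letters, and binding was not measured.

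The 8 factors lay at low to middle levels, between 0.609 and 4.67 RPKM on average. Their median of 2.89 RPKM compares with 4.59 RPKM over the 16318 genes. From high to low the order was Dlx1, Lhx6, Dlx6, Maf, Sox6, Dlx5, Dlx2 and Nkx2-1. Dlx1 stood at the percentile 50.4 of these genes by level and Nkx2-1 at 13.8. Summed over the 8 genes the level was 18.8 RPKM in mouse 7, 20.5 in mouse 8, 21.8 in mouse 9, 20.8 in mouse 10 and 25.7 in mouse 11.

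**Figure D1:**
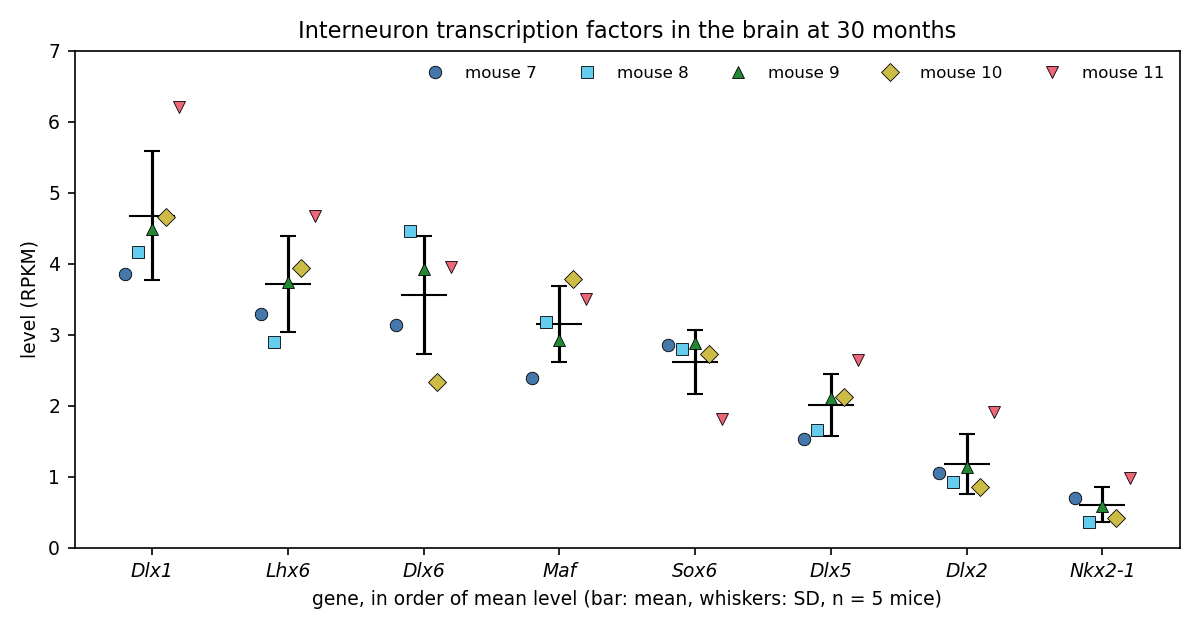
Level in RPKM of each transcription factor (y axis) in each of the 5 mice (symbols), with the mean as a bar and the SD as whiskers; genes are ordered by mean level. Dlx1 is highest at 4.67 and Nkx2-1 lowest at 0.609, and mouse 11 is the top point for Dlx1, Lhx6, Dlx5, Dlx2 and Nkx2-1 but the bottom point for Sox6.

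Nkx2-1, the factor at the head of the medial eminence cascade, had the lowest level. It is a protein-coding gene (ENSMUSG00000001496) on chromosome 12 from 56531958 to 56536908, minus strand, GRCm38. Its counts were 31, 16, 26, 19 and 52 in mice 7 to 11, or 0.702, 0.366, 0.584, 0.417 and 0.977 RPKM, a mean of 0.609 ± 0.246. Mouse 11 was highest and mice 8 and 10 lowest. The exact Poisson 95% interval of mouse 8, 0.594 to 1.69 CPM, did not overlap that of mouse 11, 2.07 to 3.64 CPM; such intervals cover counting error only. The coefficient of variation over the mice was 40.3%, where counting alone gives about 18.6% at this depth. Nkx2-1 also marks thyroid, lung and hypothalamus. Markers of thyroid, lung and pituitary had few counts. Of these 8 genes, 0 reached a mean of 10 counts, and Cga and Prl had 0 counts in every library. Their summed level was 0.709 to 1.60 RPKM. The highest, the lung gene Sftpc, had 0.591 ± 0.228 RPKM, close to the mean of Nkx2-1. The hypothalamus list of 10 genes, led by the vasopressin gene Avp, summed to between 12.7 and 58.7 RPKM. Its measured members deviated by 0.49, 0.24, -0.94, -0.23 and 0.44 log2 units in mice 7 to 11, and those of Nkx2-1 were 0.26, -0.64, 0.03, -0.46 and 0.81. Both were high in mice 7 and 11, and they parted in mice 8 and 9; the part of hypothalamic tissue in the level of Nkx2-1 was not tested.

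Lhx6, which Nkx2-1 switches on and which somatostatin and parvalbumin cells keep, stood several times above it. The gene (ENSMUSG00000026890) lies on chromosome 2 from 36081953 to 36105408, minus strand. Lhx6 had 3.29, 2.89, 3.75, 3.94 and 4.68 RPKM in mice 7 to 11, a mean of 3.71 ± 0.678 from 214 to 421 counts. Mouse 11 was highest and mouse 8 lowest, with a coefficient of variation of 18.3% against 5.8% from counting. Gm27953, a small RNA gene that shares 104 exon bases with Lhx6, had 0 counts in every library, which allows up to 3 counts each.

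Sox6, an HMG-box factor that Lhx6 needs to place and mature these cells, went against the others in mouse 11. The gene (ENSMUSG00000051910) spans 115470872 to 116038796 on chromosome 7, minus strand, and has the longest transcript model of the 8, with 14832 exon bases. Sox6 had 2.86, 2.80, 2.89 and 2.73 RPKM in mice 7 to 10 and 1.82 in mouse 11, a mean of 2.62 ± 0.452. The first 4 mice lay close together and mouse 11 lay below all of them. Without mouse 11 the SD of its log2 CPM fell from 0.25 to 0.05. Sox6 is also expressed by oligodendrocyte precursors. Their list of 10 genes, with Olig1 highest and Vcan lowest, summed to between 89.3 and 154 RPKM and had its highest mean deviation, 0.36, in mouse 11. Once both trends were taken out, that list was at 0.03 there and Sox6 at -0.10.

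Maf, a basic leucine zipper factor of medial eminence interneurons that macrophages and microglia also express, had 2.396, 3.18, 2.92, 3.78 and 3.51 RPKM in mice 7 to 11. Its mean was 3.16 ± 0.536, from 307 to 541 counts, with mouse 7 lowest and mouse 10 highest. Maf (ENSMUSG00000055435) lies on chromosome 8 from 115682942 to 115707794, minus strand; the antisense gene Gm15655 within it had 0 counts in every library. The 10 microglia genes, from Siglech to Ctss, summed to between 256 and 325 RPKM, and their mean deviations were -0.00, 0.06, -0.16, 0.01 and 0.10. Those of Maf were -0.40, 0.00, -0.09, 0.26 and 0.23, wider than the list mean in mice 7, 10 and 11 and not in mice 8 and 9. A mean over 10 genes evens out differences between them, so the 2 are unlike measures. Gene by gene, the median SD of log2 CPM was 0.38 for the microglia list, against 0.27 for Maf. Whether interneurons or microglia gave the Maf reads was not tested.

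The Dlx genes of this group lie as convergent pairs on chromosomes 2 and 6. Dlx1 (ENSMUSG00000041911), needed for the upkeep of some adult interneurons, runs on the plus strand of chromosome 2 from 71528113 to 71533981. Its levels were 3.86, 4.17, 4.48, 4.66 and 6.21 RPKM in mice 7 to 11, a mean of 4.67 ± 0.909, and mouse 11 stood above the 4 others. Dlx2 (ENSMUSG00000023391), its partner from 71543408 to 71546754 on the minus strand, had 1.06, 0.933, 1.14, 0.852 and 1.91 RPKM, a mean of 1.18 ± 0.423 from 39 to 102 counts. Mouse 11 was again highest, and its interval of 4.44 to 6.61 CPM lay above those of the other mice, of which the highest reached 4.28 CPM. Dlx5 (ENSMUSG00000029755), on chromosome 6 from 6877805 to 6882085, minus strand, had 1.53, 1.67, 2.12, 2.12 and 2.64 RPKM, a mean of 2.02 ± 0.439. Mouse 7 was lowest and mouse 11 highest for Dlx5. Dlx6 (ENSMUSG00000029754), on the plus strand from 6863334 to 6868568, had 3.14, 4.46, 3.92, 2.34 and 3.96 RPKM, a mean of 3.56 ± 0.833. Dlx6 thus had another order, with mouse 10 lowest and mouse 8 highest. The other family genes of the list, Dlx3 and Dlx4, had means of 1.4 and 4.8 counts, under the minimum for tests.

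Within the linked pairs Dlx1 stood above Dlx2 in all 5 mice, 3.42, 4.13, 3.69, 5.00 and 3.14 times, or by 1.94 ± 0.26 on the scale of log2(RPKM + 0.1). Dlx6 stood above Dlx5 in all 5 mice as well, 1.98, 2.58, 1.82, 1.1 and 1.48 times, by 0.78 ± 0.46. The ratio was closest to 1 in mouse 10, where Dlx6 was lowest. Dlx5 was above Dlx2 in 5 of 5 mice, by 0.76 ± 0.31, and Dlx1 above Dlx6 in 4 of 5, by 0.40 ± 0.41. For the first 3 of these 4 pairs the exact two-sided sign-flip permutation p was 0.0625, the smallest that 5 mice allow, and 0.0833 after Benjamini-Hochberg adjustment over the 4 pairs. For Dlx1 and Dlx6 the exact permutation p was 0.125.

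Among neighbours in the order of all 8 levels, 3 of 7 pairs kept their direction in every mouse: Dlx1 over Lhx6, by 0.32 ± 0.13 log2 units, Dlx5 over Dlx2, and Dlx2 over Nkx2-1, by 0.86 ± 0.22. Their exact permutation p was 0.0625, adjusted 0.146 over the 7 pairs. The middle of the order, Lhx6, Dlx6, Maf, Sox6 and Dlx5, did not separate beyond the spread between mice, with differences of 0.07 ± 0.49, 0.15 ± 0.48, 0.26 ± 0.44 and 0.37 ± 0.54. Lhx6 lay above Dlx6 in 3 of 5 mice, and without mouse 10 the mean difference turned to -0.09. Sox6 lay above Dlx5 in 4 mice and at 0.699 times Dlx5 in mouse 11.

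Reads from overlapping antisense genes are a limit for the Dlx pairs, since the strand setting of the counts was not given in the sources used here. Dlx1as, an antisense RNA gene, shares 335 exon bases with Dlx1 and had 15 to 40 counts, against 324 to 627 for Dlx1. Dlx6os1, also called Evf2, a long antisense RNA gene from 6820189 to 6871592, spans all exon bases of Dlx6 without sharing any of them. It had 5.37, 4.61, 3.83, 5.34 and 2.83 RPKM in mice 7 to 11, a mean of 4.40 ± 1.08. The ratio of Dlx6 to Dlx6os1 was 0.585, 0.967, 1.02 and 0.437 in mice 7 to 10, and in mouse 11 Dlx6 at 3.96 stood above Dlx6os1. Mice 7 and 10 thus had the most Dlx6os1 and the least Dlx6, and mouse 11 had the least Dlx6os1. The ratio was looked at after its values were seen and has no test. Dlx6os2, which shares 104 exon bases with Dlx6, had 0 to 6 counts. Of the other overlapping genes, Sox6os and Gm45025 in Sox6 had at most 9 counts and Gm26973 at Nkx2-1 at most 3.

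**Figure D2:**
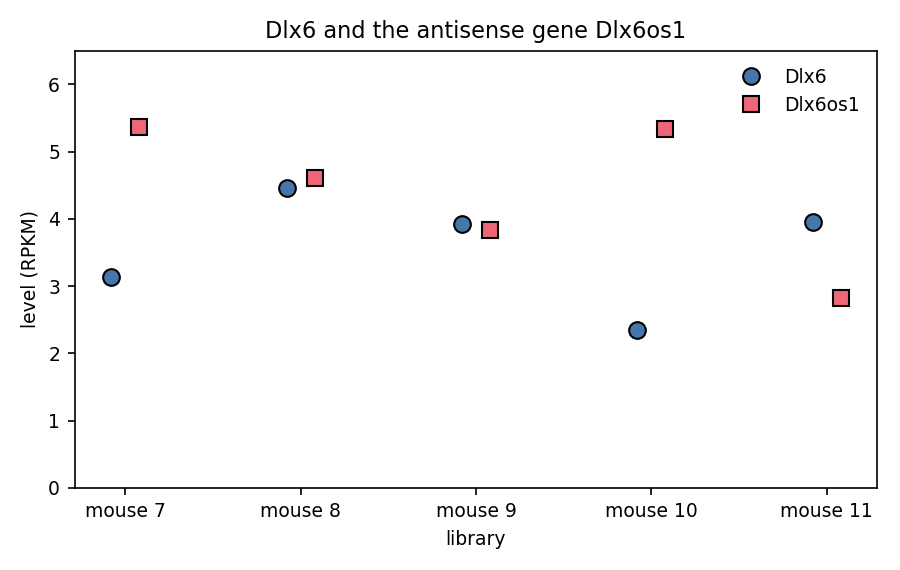
Level in RPKM (y axis) of Dlx6 (circles) and of its antisense gene Dlx6os1 (squares) in each mouse (x axis). Dlx6 lies lowest in mice 10 and 7, at 2.34 and 3.14, where Dlx6os1 lies highest, at 5.34 and 5.37.

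To ask whether any factor differed between the mice more than genes of its level do, the dispersion of each gene over the mice was compared with the trend of all genes in edgeR's quasi-likelihood framework. With Benjamini-Hochberg adjustment 0 of the 8 factors were called at 0.05, against a background of 0.0% of the 16318 genes. With no count filter 0 of the 8 were called, against 0.702% of 28335 genes. At an unadjusted p under 0.05 there were 786 genes and 0 of the 8 factors. DESeq2 marked 49 genes as dispersion outliers, 0.3% of those tested, and 0 of the 8. The dispersion relative to the trend ran from 0.851 for Dlx5 to 1.58 for Dlx2, whose adjusted edgeR p was 0.985. Without mouse 11 it ran from 0.0835 for Sox6 to 2.44 for Maf and 2.62 for Dlx6, with Dlx2 at 0.275. The factor highest by this ratio thus changed when that library was left out. Without mouse 10 the ratio of Dlx6 was 0.412. By SD of log2 CPM, Nkx2-1 varied most of the 8 with mouse 11, at 0.58. It also did so without mouse 11, at 0.42, with Dlx6 next at 0.41. Over the alternative scalings, filters and left-out mice, adjusted p-values of the 8 lay between 0.937 and 0.999. On simulated counts of the 16318 genes the test recovered 0 of 100 single-mouse rises of 4-fold and 80 of 100 of 16-fold, so differences of the size seen here were not detectable by it. The median SD of log2 CPM was 0.32 for the 8 factors and 0.30 for all genes tested.

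Across the mice the 8 factors had mean deviations of -0.14, -0.17, 0.05, -0.12 and 0.38 log2 CPM in mice 7 to 11. Of the 8, 5 were highest in mouse 11 (Dlx1, Lhx6, Dlx5, Dlx2 and Nkx2-1), against 37.6% of all genes tested. Sox6 alone of the 8 was lowest there, against 32.7% of all genes. In mouse 7 the factors Dlx1, Dlx5 and Maf were lowest, against 25.4% of all genes, and 0 of the 8 were highest, against 25.0%. Lhx6 and Nkx2-1 were lowest in mouse 8, against 13.5% of all genes, and Dlx6 and Dlx2 in mouse 10, against 13.1%. Each of these shares is to be read beside GC content, which was 54.6% to 58.3% for the 5 factors highest in mouse 11 and 46.1% to 49.4% for Sox6, Maf and Dlx6. Among all genes at or above 55% GC, where Lhx6, Dlx2 and Nkx2-1 lie, 85.4% were highest in mouse 11. Between 50% and 55%, where Dlx1 and Dlx5 lie, 52.4% were highest there. Between 45% and 50%, where Sox6, Maf and Dlx6 lie, 43.7% were lowest in mouse 11 and 17.6% highest.

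Set beside genes within 1 point of its own GC content, Lhx6 did not stand out in mouse 11: it deviated by 0.41, and the median of 1395 such genes was 0.39. Dlx1 and Dlx5, at 0.49 and 0.47, lay above a median of 0.30, just above the upper quartile of 0.45. Dlx2 and Nkx2-1, both at 0.81, lay above medians of 0.49 and 0.43 and upper quartiles of 0.64 and 0.57. Sox6, at -0.44, lay below a median of -0.21 but inside the quartiles. Maf, at 0.23, and Dlx6, at 0.25, lay above the upper quartiles of 0.07 and 0.20, although the medians of genes like them in GC were -0.15 and -0.00.

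**Figure D3:**
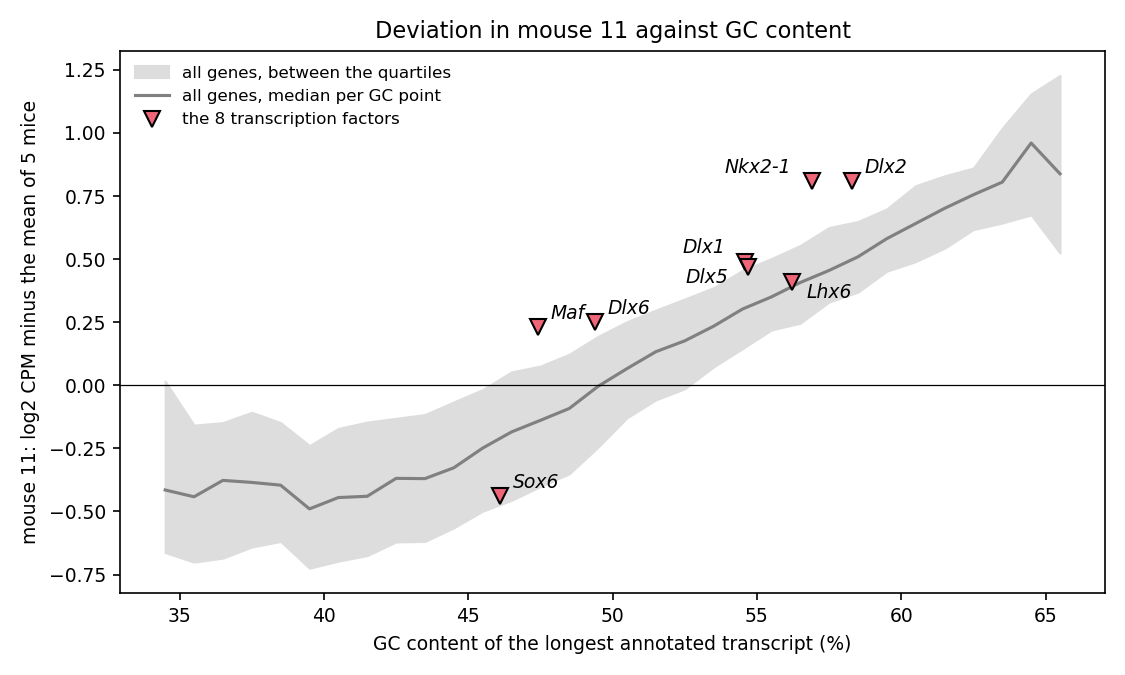
Deviation in mouse 11 from the 5-mouse mean in log2 CPM (y axis) against the GC content of the longest transcript in percent (x axis), with the median of all genes tested per GC point as a line, the range between the quartiles as a band and the 8 factors as triangles. Lhx6 at 0.41 lies on the line, Sox6 at -0.44 lies near the lower edge of the band, Dlx1 and Dlx5 lie at or just over its upper edge and Maf, Dlx6, Dlx2 and Nkx2-1 lie above it.

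With the GC and length trends removed from each library, the mean deviations became -0.09, -0.13, 0.12, -0.10 and 0.21. Mouse 11 was then highest for Dlx1, Dlx2, Dlx6 and Maf, 4 of the 8 against 30.0% of all genes. Mouse 9 was highest for Lhx6, Dlx5 and Sox6, 3 of the 8 against 18.2%. Mouse 7 was lowest for Dlx1, Dlx5, Maf and Sox6, 4 of the 8 against 30.3%. In mouse 11 Sox6 was at -0.10, close to its lowest value of -0.12 in mouse 7, and its SD fell from 0.25 to 0.10. The SD of Dlx1 fell from 0.29 to 0.15, that of Lhx6 from 0.29 to 0.16, that of Dlx5 from 0.34 to 0.22, that of Dlx2 from 0.48 to 0.27 and that of Nkx2-1 from 0.58 to 0.45. The median SD over all genes fell likewise, from 0.30 to 0.23, and that over the 8 factors from 0.32 to 0.25. Dlx6 kept an SD of 0.36 against 0.38, with mouse 10 still lowest at -0.57. Maf went the other way, from 0.27 to 0.36, with -0.51 in mouse 7 and 0.44 in mouse 11. Without mouse 11, and with no trend removed, the SD was 0.13 for Dlx1, 0.21 for Lhx6, 0.25 for Dlx5, 0.19 for Dlx2 and 0.42 for Nkx2-1, all under their values over 5 mice. That of Maf was 0.27 as before and that of Dlx6 was 0.41. The mean deviations of the 8 factors in mice 7 to 10 were then -0.05, -0.07, 0.15 and -0.03.

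**Figure D4:**
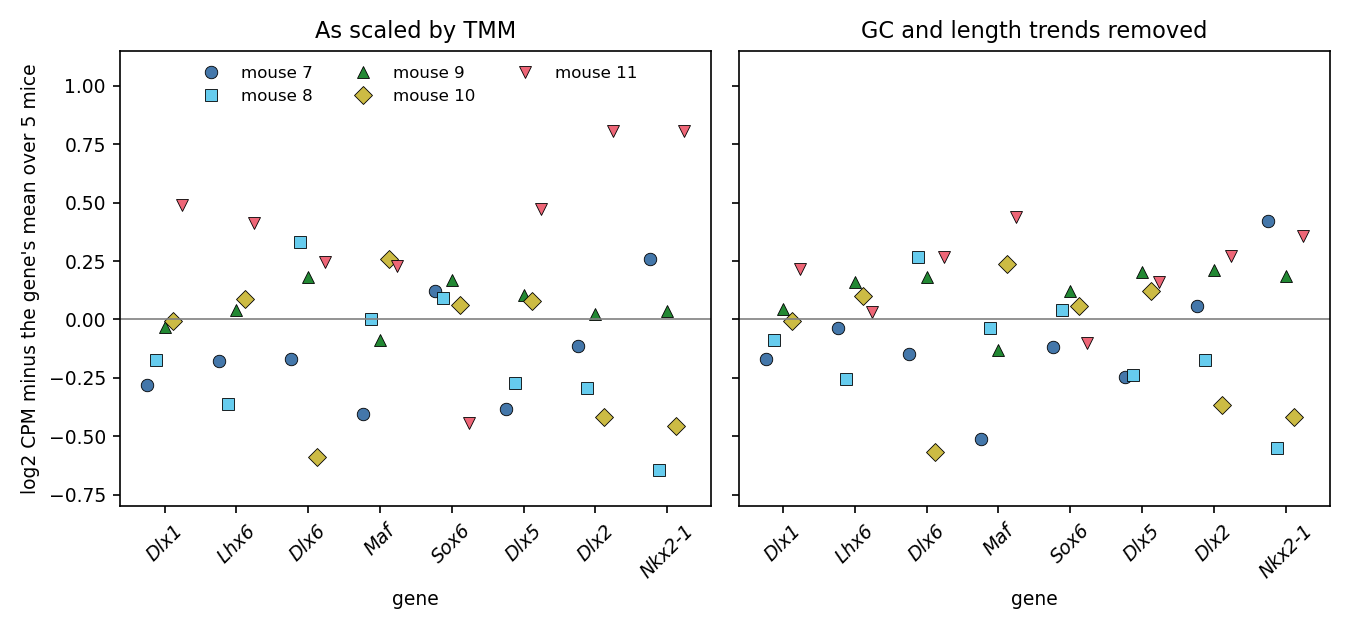
Deviation of each factor from its 5-mouse mean in log2 CPM (y axis) for each mouse (symbols), as scaled by TMM (left) and after the GC and length trends were removed (right). On the left mouse 11 is the top symbol for 5 factors, with 0.81 for Dlx2 and Nkx2-1; on the right the symbols of Dlx1, Lhx6 and Sox6 draw together while Maf spreads out.

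Likeness between genes was measured as the root mean square difference of their deviations over the 5 libraries, in log2 units, where 0 is an identical pattern. Of the 28 pairs among the factors, Dlx1 and Dlx5 were most alike at 0.10, followed by Lhx6 and Dlx5 at 0.11 and Dlx1 and Lhx6 at 0.12. The 2 linked pairs were less alike, with 0.25 for Dlx1 and Dlx2 and 0.43 for Dlx6 and Dlx5. Sox6 and Nkx2-1 were farthest apart at 0.69, and at 0.46 with the trends removed, where Maf and Nkx2-1 were farthest at 0.58 and Lhx6 and Dlx5 closest at 0.11. After the trends were removed Sox6 was at 0.15 from Lhx6 and 0.16 from Dlx1, where it had been at 0.46 and 0.48.

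The protein-coding genes nearest to Lhx6 in pattern were Nckipsd, Slc35a4 and Fads2, at 0.031 to 0.040, among 10991 candidates with a mean of at least 100 counts. Nearest to Dlx1 were Cmip, Rapgef1 and Osbp2, at 0.015 to 0.016, and nearest to Dlx5 Slc7a4, Gpd1 and Ficd, at 0.053 to 0.058. Dlx2 was nearest to Capn1, Klhl40 and Uap1l1 and Nkx2-1 to Ydjc, Zfp414 and Col11a2, the latter 3 no closer than 0.134. Sox6 was nearest to Slc10a7, Eogt and Copg2, at 0.017 to 0.022, and Maf to Nfatc2ip, Mettl7a1 and Cdyl, at 0.019 to 0.037. Dlx6 was nearest to Snrpe, Suox and Eda, at 0.094 to 0.118. The 3 genes nearest to Sox6 had 44.3% to 46.9% GC and the 3 nearest to Lhx6 54.4% to 58.0%. Only 3 of these 24 neighbours, Capn1, Eda and Zfp414, were also among the nearest once the trends were removed.

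The GABA genes gave a reference for inhibitory neurons as a whole. Gad1, which makes GABA, had 74.3, 87.0, 94.7, 88.3 and 81.8 RPKM in mice 7 to 11 and Slc32a1, the vesicular GABA transporter, 26.0, 26.0, 23.4, 31.1 and 46.2. Gad2 was lowest in mouse 11 with 38.9 RPKM, and the 4 others had 53.0 to 59.8. These genes differ in GC content as well, with 44.1% for Gad2, where mouse 11 was lowest, and 61.9% for Slc32a1, where it was highest. Gad1 was 19.3, 20.9, 21.1, 19.0 and 13.2 times as high as Dlx1 in mice 7 to 11.

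Of 24 other regulators of the interneuron lineage, 20 were measured at a mean of at least 10 counts. By edgeR 0 of the 20 were called variable, against 0.0% of all 16318 genes tested. The highest was Id2, an inhibitor of helix-loop-helix factors, with 65.4 ± 11.4 RPKM, and the lowest Dlx3. Satb1, a chromatin organiser of Lhx6 cells, varied little, with 7.10 ± 0.255 RPKM. As a group these 20 genes had mean deviations of -0.17, -0.04, -0.10, 0.02 and 0.29, or -0.22, -0.02, -0.04, 0.04 and 0.24 with the trends removed. Of the 20, 12 were highest in mouse 11, against 37.6% of all genes and 52.4% of genes between 50% and 55% GC, where the list's median GC of 50.1% lies. Of 12 genes listed as downstream of Dlx or Lhx6, 0 were called, against 0.0% of all genes. The highest was the peptide gene Sst with 173 ± 61.6 RPKM and the lowest the chemokine receptor gene Cxcr4 with 0.682 ± 0.317. Erbb4, the neuregulin receptor of these cells, went from 12.4 RPKM in mouse 7 down to 5.21 in mouse 11 and has 40.6% GC.

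Markers of interneuron classes numbered 21, again with 0 called, against 0.0% of all genes. They had mean deviations of -0.06, 0.06, -0.09, -0.05 and 0.13. These list means were smaller in size than those of the 8 factors in mice 7, 8, 10 and 11 and larger in mouse 9. Single class markers were not steadier, with a median SD of log2 CPM of 0.35 against 0.32 for the 8 factors. Sst, with 56.0% GC, stood at 279.9 RPKM in mouse 11, above a range of 129 to 171 in mice 7 to 10. Vip, a marker of caudal eminence cells with 38.7% GC, stood at 9.06 RPKM there, below a range of 14.7 to 19.0. Among all genes at or above 55% GC, 85.4% were highest in mouse 11. Under 40% GC, 62.7% were lowest there. Of the 21 markers, 10 were highest and 4 lowest in that library. The deviations of Pvalb, Htr3a, Cck and Calb2 there were 0.22, 0.45, 0.72 and 0.27 log2 units. A shift between interneuron classes was not tested. Chodl, of a rare long-range somatostatin type, was lowest with 0.312 ± 0.176 RPKM. The 8 excitatory neuron markers had mean deviations of -0.14, -0.22, 0.01, -0.02 and 0.37, with the same highest and lowest mouse as the 8 factors. Striatal projection neurons, which also come from Dlx-positive progenitors, had -0.22, -0.04, 0.09, -0.01 and 0.19. The list means of astrocytes lay between -0.11 and 0.10, and those of mature oligodendrocytes between -0.25 and 0.20. The median SD per gene was 0.23 and 0.35 in these 2 lists. Neuroblasts and dividing cells, which express Dlx genes in the adult olfactory stream, had their lowest list mean in mouse 11, at -0.46. It includes Mki67 at -2.3, from 2 counts in that mouse. Of the 7 genes measured, 3 were lowest in mouse 11, against 32.7% of all genes, and 2 were highest, against 37.6%. Mki67 and Ccnb1 had means of 16.4 and 1.0 counts. The cerebellum list, with 2.13 in mouse 10 and -1.56 in mouse 9, and the olfactory bulb list, with 0.68 and -0.72, also differed between those mice. The part of tissue composition in the values of the 8 factors was not tested.

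**Figure D5:**
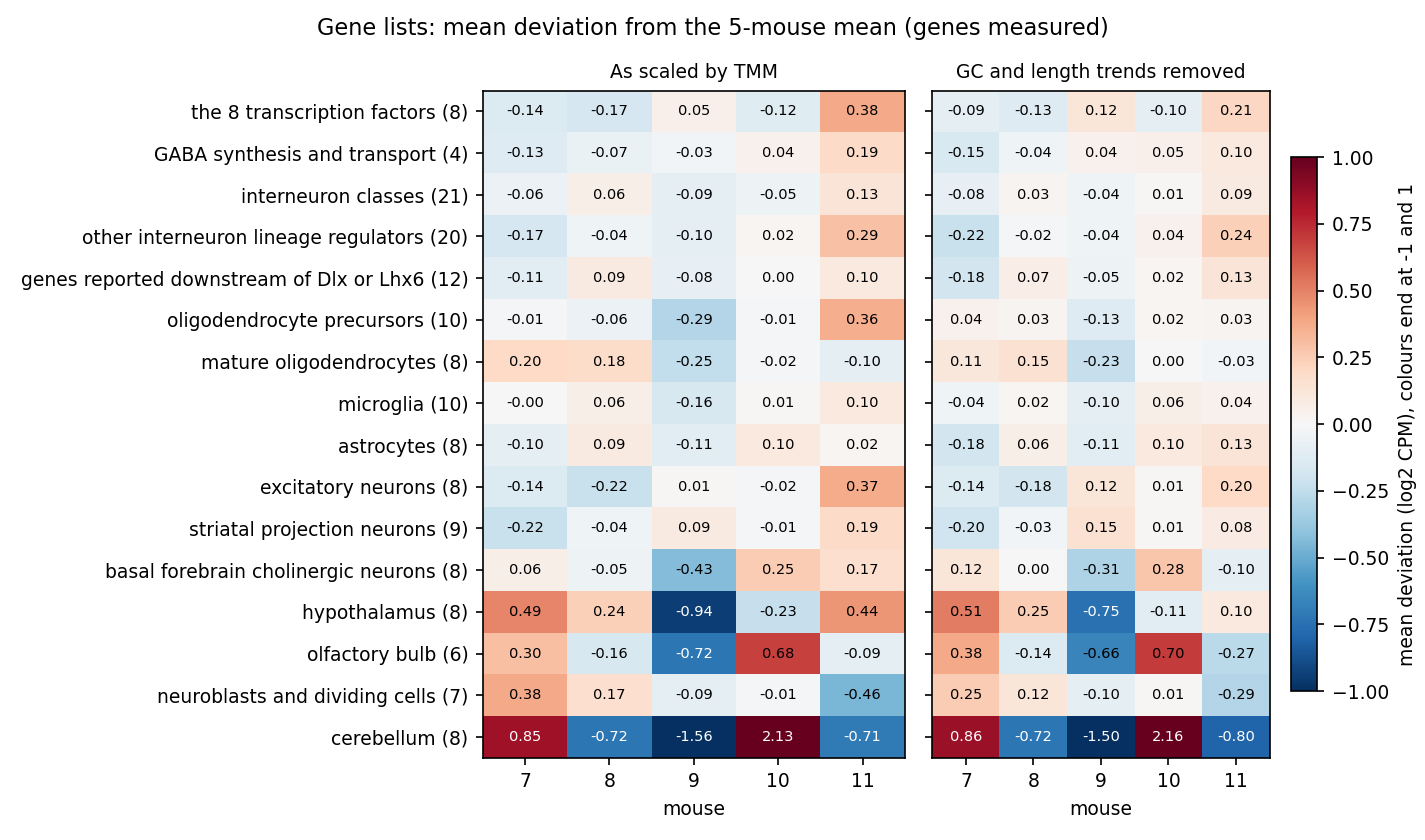
Mean deviation from the 5-mouse mean in log2 CPM (colour and number) for each gene list (rows, with the number of genes measured) in each mouse (columns), as scaled by TMM (left) and after removal of the trends (right). The 8 factors are at 0.38 in mouse 11 on the left and 0.21 on the right, and the cerebellum list has the widest range, from -1.56 to 2.13 on the left.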

How the data were processed

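Per the labels' protocols, libraries were made from brain RNA with an Illumina mRNA kit. The tables used were: gene counts, which the authors deposited unnormalized, and RPKM, which the authors deposited with 3 decimals. The submitters' processing notes name CASAVA 1.7, STAR 2.4.1d, featureCounts 1.4.6-p4 and GRCm38; the annotation, strand setting and read filters are not given in the sources used here. For all of 12729 genes checked, the deposited RPKM matched the counts within 1% with the 5 library totals applied by turns from gene to gene, and for 0 genes with each library's own total. RPKM were therefore recomputed with each library's own total and the gene lengths the deposited values imply. Names, positions and GC content (longest transcript) come from GENCODE M21.

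Variability was tested with edgeR 4.0.16 and limma 3.58.1, with TMM scaling and an intercept fit for genes with a mean of at least 10 counts. The test was tried on simulated data. DESeq2 1.42.0 was an alternative. Deviations are TMM log2 CPM (prior count 1) minus the gene's mean; trends were cubic in GC content and log2 length. No pair of libraries matched within sampling noise (chi-square per gene 6.97 to 102). The 8 factors and 16 gene lists (152 genes) were chosen with earlier results of these data known. Named were the 8 factors, genes overlapping them, the 3 nearest genes in pattern, and, for the lists described gene by gene, the highest and lowest genes and defining markers at 0 (the rule covered every list; the other lists are given by their means); Satb1, Erbb4, Vip, Mki67, Dlx4 and the markers given for comparison were chosen after their values were seen, as were the sequence motifs and GC comparisons. Some genes of the lists are not reported here.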

Additional observations from a re-analysis of the deposited data

Results flagged for a closer look

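Values far from the other 4 mice were found for 2 of the 8 factors, and both concern mouse 11. Chance alone meets the criterion in about 1 of 20 groups. The share of all genes that met it was not counted, so 2 of 8 cannot be read as an excess. Mouse 11 was highest for 37.6% of all genes tested and lowest for 32.7%. Sox6 had 27.0 CPM in mouse 11 and 40.5 to 42.8 CPM in the others, a gap of 0.85 of the whole range. Dlx2 had 5.45 CPM in mouse 11 and 2.43 to 3.26 CPM in the others, a gap of 0.727 of the range. With the GC and length trends removed, Sox6 was at -0.10 and Dlx2 at 0.27 log2 units in mouse 11, where they had been at -0.44 and 0.81.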

How the results depend on the processing

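The count of genes called variable, 0 with edgeR, was 199 with no count filter and 49 as DESeq2 dispersion outliers; it stayed 0 with DESeq2 size factors, library totals, a mean of at least 50 counts, and without each mouse in turn, and no factor tested was called under any of these (Nkx2-1 falls under the minimum of 50). The cause of the difference was not tested. The level of Lhx6 over Dlx6 reversed to -0.09 without mouse 10 and ran up to 0.24 without mouse 8. A pseudocount of 1 RPKM took the log2 ratio of Dlx1 to Dlx2 to 1.39 and that of Dlx2 to Nkx2-1 to 0.43, as it shrinks low levels. The mean deviation in mouse 11 was 0.32 with library totals, 0.35 with DESeq2 size factors, and 0.34 to 0.39 without each other mouse. The SD of log2 CPM of Dlx6 fell from 0.38 to 0.22 without mouse 10, and that of Maf from 0.27 to 0.17 without mouse 7. With the deposited RPKM, Dlx1 lay above Dlx6 in every mouse, with an exact permutation p of 0.0625. The remaining alternatives moved no mean level or level ratio past its spread. No paired analysis was possible because the labels give 1 group. Depth limits Nkx2-1 most, with 16 to 52 counts.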

Other observations

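Genes of basal forebrain cholinergic neurons, which like the interneurons descend from Nkx2-1 progenitors, were measured at low levels. Their 8 genes summed to between 7.08 and 9.85 RPKM. Slc5a7, the choline transporter, was highest with 2.02 ± 0.447 RPKM, and Gbx1, a homeodomain factor, lowest with 0.421 ± 0.221. Lhx8, the relative of Lhx6 that favours the cholinergic fate, had 0.940, 1.28, 1.11, 1.06 and 0.717 RPKM in mice 7 to 11, with mouse 11 lowest, where Lhx6 was highest. Its GC content was 50.6% and that of Lhx6 56.2%. Gsx2 and Gsx1, factors of ganglionic eminence progenitors, had means of 2.8 and 6.2 counts. By edgeR, 0 of the 8 cholinergic genes were called variable, against 0.0% of all 16318 genes tested.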
